A study of Equus caballus with 45 samples.

Results

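The BCL2 family controls whether the outer membrane of the mitochondrion is opened during apoptosis. Guard proteins such as BCL2, BCL2L1 (BCL-xL), BCL2A1 (A1) and MCL1 hold the membrane closed, the effector BAX can open it, and proteins with only a BH3 domain, among them BID, BCL2L11 (BIM) and PMAIP1 (NOXA), either engage the effectors or occupy the guards. Transcription of BCL2A1 is a known target of NF-κB, that of BAX and PMAIP1 a known target of p53, and MCL1 and PMAIP1 are short-lived proteins whose amount is also set after transcription. The 8 genes named here were found by their symbols in both count tables and make up 8 of the 20881 genes listed. All 8 passed the filter of at least 10 counts in every fit.

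The study asked how equine mesenchymal stromal cells (MSC), activated through innate immune receptors, act on the cells of an inflamed joint. The data hold 45 RNA-seq libraries. MSC from the bone marrow of 3 donor horses (PC, 99 and 92) were left untreated, were exposed for 2 h to the TLR3 agonist poly I:C or to the STING agonist 2′3′-cGAMP, or had an addition given in the labels only as CpG, with no exposure time, which gives 12 libraries with 1 per donor and condition. By the methods, MSC given an agonist were washed after the 2 h and lysed after 24 more hours in fresh medium. The methods give both agonists at 10 µg/mL, whereas the labels give the same number in ng/mL. Synoviocytes, chondrocytes and blood-derived macrophages, 11 libraries of each, came from 1 healthy horse by the methods. In each of these cell types 9 libraries are of cells given IL-1β and TNF-α and conditioned medium (CM) of MSC. The MSC were resting, TLR3-activated (TLR-MSC-CM) or STING-activated (STING-MSC-CM), with 1 library per medium for each of the lines PC, ORC and AG1. The cells had this medium for 24 h and fresh medium for a further 24 h. The abstract of the study gives the cytokines for 2 h and a wash before the MSC medium, whereas the methods name no wash between them. A further library had the cytokines only and another had no addition, and both are named ORC except the synoviocyte library with cytokines only, which is named PC. The methods give each cytokine at 20 ng/mL and the labels give 10 ng/mL for macrophages. The labels do not say whether these names stand for the MSC donor of the medium or for the joint cells: PC is also an MSC donor, ORC and AG1 are not among the MSC libraries, and the names also stand on libraries without medium. They are therefore called lines here. The p-values in joint cells measure the spread between libraries of the 3 lines, and with 1 horse by the methods cell type and culture cannot be told apart.

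Total counts on genes ran from 23525704 to 54103873 per library. Levels are given as CPM, the count of a gene divided by the total of its library and scaled to 1000000, and a count of 3, taken as the floor, was 0.0554 to 0.128 CPM. The macrophage marker list summed to 12198 to 15606 CPM in the macrophage libraries, and these also held 452 to 838 CPM of the lymphocyte list, with CD3E at 60.4 to 134 CPM, against 3.67 to 9.26 CPM in all other libraries. Chondrocyte libraries had ACAN at 6.12 to 101 CPM and COMP at 15.6 to 170 CPM, but COL2A1 did not pass 0.368 CPM and COL9A1 stayed at the floor, while COL11A1 was at 117 to 512 CPM there, 137 to 315 CPM in synoviocytes and 205 to 841 CPM in MSC. Synoviocytes had COL1A1 at 29790 to 48947 CPM, which overlapped the 15352 to 42507 CPM of MSC, and their lining markers CD55 and CLIC5 did not pass 1.23 and 0.159 CPM. In MSC, the 22 interferon-stimulated genes of a check list summed to 450 CPM in the TLR3 library of donor 92, against 9266 and 15343 CPM in the TLR3 libraries of donors 99 and PC and 456 to 646 CPM in untreated MSC. The 3 chondrocyte libraries of line ORC with MSC-CM had 471 to 591 CPM of 8 NF-κB target genes, against 1035 to 1275 CPM in lines PC and AG1.

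Among the 8 genes, the guards are BCL2, BCL2L1, BCL2A1 and MCL1. Each had its highest level in macrophages, where no library overlapped those of any other cell type. However, 1 further guard gene, from a wider list of the family, went the other way. It was lowest in macrophages, at 10.3 to 15.5 CPM. Its ranges were 22.6 to 31.0 CPM in synoviocytes, 24.6 to 35.7 CPM in chondrocytes and 38.7 to 63.7 CPM in MSC. MSC and joint cells come from separate tables, and their levels are set side by side without a test. The share of all genes without overlap between cell types was not computed. Between macrophages and the mean of the other joint cells with resting MSC-CM, 73.5% of genes were called in either direction. BCL2 lay between 14.3 and 29.8 CPM in the 11 macrophage libraries, with a median of 23.3 CPM. It followed in MSC with 1.74 to 8.86 CPM and a median of 3.71 CPM, and in chondrocytes with 2.49 to 5.79 CPM and a median of 3.49 CPM, and the ranges of those cell types overlapped. Synoviocytes had the least BCL2, 0.734 to 1.74 CPM with a median of 1.17 CPM, and each chondrocyte library was above each synoviocyte library. BCL2L1 had a median of 236 CPM in macrophages, from 186 to 324 CPM. Its medians in MSC, chondrocytes and synoviocytes, 48.3, 34.6 and 24.7 CPM, came from ranges that overlapped from each cell type to the next. BCL2A1 ranged from 39.9 to 75.4 CPM in macrophages, with a median of 53.3 CPM, and its medians of 4.42 CPM in synoviocytes, 3.72 CPM in MSC and 3.53 CPM in chondrocytes could not be ordered beyond the spread of the libraries. MCL1 was at 382 to 478 CPM in macrophages, with a median of 419 CPM, while its medians of 106, 103 and 78.8 CPM in synoviocytes, chondrocytes and MSC again had overlapping ranges.

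**Figure D1:**
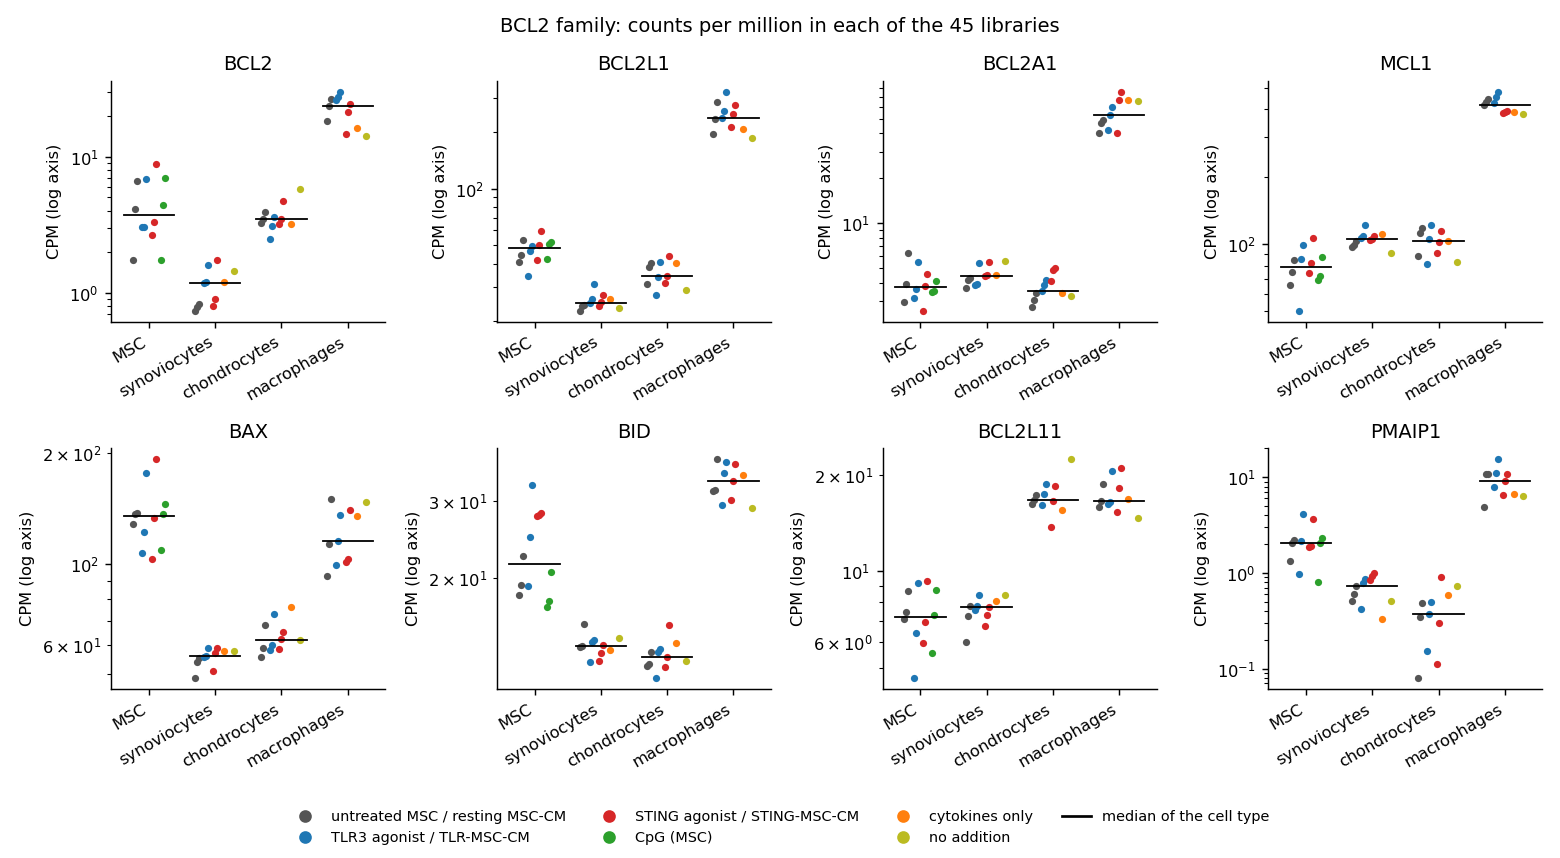
Level of each of the 8 genes in every library, as CPM on a log axis, for MSC (12 libraries) and for synoviocytes, chondrocytes and macrophages (11 each). Each point is 1 library colored by its condition and the bar is the median of the cell type. BCL2, BCL2L1, BCL2A1, MCL1 and PMAIP1 stand apart in macrophages, and the share of all genes that do so was not computed. BAX and BID are high in MSC as well, and BCL2L11 is high in chondrocytes and macrophages.

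The effector and the BH3-only genes were ordered in other ways. BAX was at 103 to 193 CPM in MSC, with a median of 135 CPM, and at 92.9 to 150 CPM in macrophages, with a median of 116 CPM, so that those cell types overlapped. Both were above chondrocytes and synoviocytes, whose medians of 61.9 and 56.2 CPM had overlapping ranges. BID, which is cut by caspase-8 to link death receptors to the mitochondrion, had medians of 33.2 CPM in macrophages and 21.5 CPM in MSC with overlapping ranges, and it was lower in synoviocytes, at 12.9 to 15.7 CPM, and in chondrocytes, at 11.8 to 15.6 CPM. No library of the former pair fell within the range of the latter. BCL2L11, which binds all of the guards, was the only member with its highest median in chondrocytes, 16.7 CPM from 13.7 to 22.3 CPM. Macrophages overlapped them with a median of 16.5 CPM, and by mean macrophages were higher, at 17.27 against 17.15 CPM. Synoviocytes and MSC were lower, with medians of 7.71 and 7.19 CPM. PMAIP1, which binds MCL1, ranged from 4.93 to 15.4 CPM in macrophages and did not pass 4.09 CPM in any other library. Its medians were 9.12 CPM in macrophages, 2.06 CPM in MSC, 0.723 CPM in synoviocytes and 0.370 CPM in chondrocytes, and in chondrocytes the level rested on 2 to 38 counts per library.

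In the test of macrophages against the stromal joint cells (the mean of synoviocytes and chondrocytes) with resting MSC-CM, all 8 genes were called higher in macrophages. PMAIP1 was at 10.8, 4.93 and 10.9 CPM in macrophages of lines AG1, ORC and PC, and no stromal library with resting MSC-CM passed 0.723 CPM. Its log2 fold change was 4.31 (SE 0.37) with an adjusted p of 3.1e-10 by edgeR. BCL2 had a log2 difference of 3.74 (SE 0.19, adjusted p = 1.5e-14) and BCL2A1 one of 3.66 (SE 0.16, adjusted p = 1.4e-15). The remaining guards followed, BCL2L1 with 2.99 (SE 0.12, adjusted p = 3.7e-16) and MCL1 with 2.05 (SE 0.091, adjusted p = 1.7e-15). The smallest differences were those of BID, 1.27 (SE 0.10, adjusted p = 7.2e-11), of BAX, 1.04 (SE 0.11, adjusted p = 1.6e-08), and of BCL2L11, 0.63 (SE 0.098, adjusted p = 4.3e-06). The count of 8 of 8 stands beside a background of 73.5% of 16584 genes called in either direction and 38.5% called higher. The median log2 fold change was 2.52 over the 8 genes and 0.051 over all genes tested. All 8 were also called higher with TLR-MSC-CM, where 38.9% of genes were, and with STING-MSC-CM, where 37.7% were.

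Bulk RNA cannot tell fewer cells of a type from less RNA per cell. The lymphocyte markers were at 452 to 838 CPM in macrophages, as given above, with all 9 listed genes above the floor, whereas CD2 was at 0 in each MSC, synoviocyte and chondrocyte library. Of 5 neutrophil markers, CSF3R was at 258 to 587 CPM in macrophages and 0.119 CPM at most elsewhere, ELANE was at 3.13 to 5.26 CPM against 0.474 CPM at most, MPO and LTF had medians of 0.113 and 0.0528 CPM in macrophages, and S100A12 was lower there, with a median of 0.0754 CPM against 14.4 CPM in synoviocytes. The part of lymphocytes in the levels of BCL2, BCL2A1 and the other members in macrophages was not tested. Without the ORC chondrocyte libraries, all 8 genes were still called and the differences ran from 0.63 for BCL2L11 to 4.13 for PMAIP1.

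Chondrocytes and synoviocytes differed in fewer members. With resting MSC-CM, BCL2 was at 3.23, 3.49 and 3.94 CPM in chondrocytes of lines AG1, ORC and PC and at 0.790, 0.734 and 0.826 CPM in synoviocytes. The log2 fold change was 2.16 (SE 0.26, adjusted p = 1.9e-06 by edgeR). BCL2L11 was at 17.2, 16.2 and 16.7 CPM against 6.001, 7.79 and 7.26 CPM, or 1.24 on the log2 scale (SE 0.12, adjusted p = 5.2e-08). BCL2L1 was at 38.5, 31.3 and 40.6 CPM against 24.2, 22.5 and 24.1 CPM, or 0.63 on the log2 scale (SE 0.15, adjusted p = 0.0036). In each of the 3 genes, every chondrocyte library was above every synoviocyte library, and the share of all genes without overlap was not computed here. Without the ORC chondrocyte libraries the 3 values were 2.16, 1.26 and 0.72, and all 3 were called. The other 5 genes were not called, with log2 fold changes of −0.96 (SE 0.57) for PMAIP1, −0.41 (SE 0.21) for BCL2A1, −0.17 (SE 0.12) for BID, 0.07 (SE 0.11) for MCL1 and 0.19 (SE 0.13) for BAX. MCL1 was at −0.0052 without the resting chondrocyte library of line AG1. The 3 called genes were all higher in chondrocytes, beside 21.4% of genes called in either direction and 10.3% called higher.

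The same contrast in the other media called BCL2 and BCL2L11 with TLR-MSC-CM (log2 fold changes of 1.22, SE 0.24, and 1.13, SE 0.12), where 19.5% of genes were called, and BCL2, BCL2L1 and BCL2L11 with STING-MSC-CM (1.75, SE 0.25; 0.49, SE 0.15; and 1.13, SE 0.12), where 20.4% were called. With the line as a block, PMAIP1 was called as well, lower in chondrocytes, at −1.06 (edgeR adjusted p = 0.047) with TLR-MSC-CM and −1.07 (adjusted p = 0.034) with STING-MSC-CM. PMAIP1 had 2, 5 and 3 counts in the ORC chondrocyte libraries with resting, TLR- and STING-MSC-CM, and without these libraries its difference with resting MSC-CM was −0.59 (SE 0.53) and not −0.96.

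**Figure D2:**
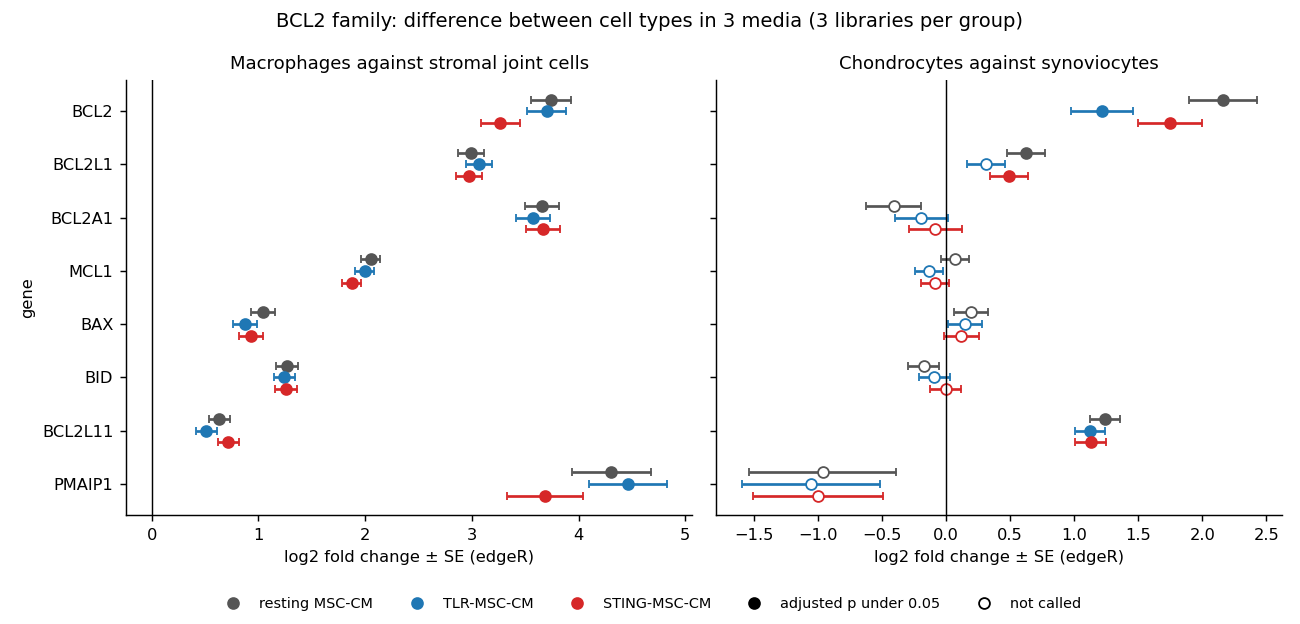
Log2 fold change ± SE (edgeR, 3 libraries per group) of each gene between cell types, for macrophages against stromal joint cells (left) and chondrocytes against synoviocytes (right), in the 3 media. Filled points have an adjusted p under 0.05; all 8 genes are filled in each medium on the left, and on the right BCL2 and BCL2L11 in each medium and BCL2L1 with resting and STING-MSC-CM.

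The machinery around these 8 genes had members in both directions. Between macrophages and stromal joint cells with resting MSC-CM, 10 other family genes were tested, of which 3 were called higher and 6 lower, beside the 73.5% of all genes called and 38.5% called higher, with a median log2 fold change of −1.07. The counts of the further lists below stand beside the same shares. The 3 higher genes were BAK1, HRK and BCL2L13, the last by 0.21 (SE 0.068), and HRK and BCL2L13 were named after their values were seen. No fold is given for HRK and BOK, which were near the floor in one of the cell types. BAK1, an effector like BAX, was higher by 2.43 (SE 0.12, adjusted p = 1.0e-14). BNIP3 and BNIP3L, BH3-type proteins of mitochondrial turnover, were lower, at −3.68 (SE 0.14, adjusted p = 1.5e-16) and −2.26 (SE 0.11, adjusted p = 1.7e-14). Among 16 genes of the apoptosome and caspases, 10 were called higher and 4 lower, with CASP8, the caspase of death receptors, at 2.05 (SE 0.12, adjusted p = 1.5e-13). Of 10 genes that restrain cell death, 6 were higher and 4 lower, with CFLAR, which blocks caspase-8, at 2.32 (SE 0.14, adjusted p = 3.5e-13). Of 8 mitochondrial membrane partners, 5 were higher and 1 lower. The check lists gave 6 of 8 NF-κB targets higher and 1 lower (median 1.26), 5 of 8 p53 targets higher and 3 lower (median 0.57) and 22 of 22 interferon-stimulated genes higher (median 5.46).

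Between chondrocytes and synoviocytes, 2 of the 10 other family genes were called, both higher in chondrocytes, beside the 21.4% of all genes called in this comparison. One was BMF, a BH3-only gene, at 1.16 (SE 0.25, adjusted p = 0.0018), and the other was BOK, at 1.07 (SE 0.38, adjusted p = 0.048), which was named after its value was seen. CASP10 and CASP2 were the 2 of 16 apoptosome and caspase genes called, lower, at −0.65 (SE 0.14) and −0.41 (SE 0.11). The remaining calls were BAG1, a co-chaperone that binds BCL2, lower, at −0.40 (SE 0.081), and the channel gene VDAC1, higher by 0.40 (SE 0.078). NF-κB targets were called higher in 3 and lower in 2 of 8 genes, p53 targets lower in 1 of 8, and interferon-stimulated genes higher in 1 and lower in 6 of 22.

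In MSC, none of the 8 genes was called after either agonist or CpG. By edgeR no gene at all passed the adjusted threshold of 0.05 in the 4 MSC comparisons (0% of genes), and no member had an unadjusted p under 0.05, a level that 1.15% of 14872 genes reached with the TLR3 agonist, 2.1% with the STING agonist, 0.242% between the agonists and 0.305% of 15099 genes with CpG. DESeq2 also called 0 of 8, but it called 48 genes with the TLR3 agonist, 93 with the STING agonist, 1 between the agonists and 0 with CpG. With the donor as a block edgeR called 2 genes with the STING agonist and 0 in the others. The interferon-stimulated list had median log2 fold changes of 4.78 with the TLR3 agonist and 5.33 with the STING agonist in the same libraries, 0.47 between the agonists and 0.04 with CpG. In the same order, NF-κB targets had medians of −0.36, −0.10, 0.11 and −0.08, and p53 targets medians of −0.09, 0.11, 0.16 and 0.01.

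BID had the smallest p of the 8 genes with either agonist. It was at 19.3, 22.4 and 18.3 CPM in untreated MSC of donors 92, 99 and PC. With the STING agonist it was at 28.2, 27.8 and 27.6 CPM, above untreated MSC in all 3 donors and without overlap. The log2 fold change was 0.47 (SE 0.23), with an adjusted p of 1.0 by edgeR. BID was the 1 member of 8 without overlap in this comparison, beside 5.97% of genes. With the donor as a block its adjusted p was 0.46, and it was the 1 member of 8 with an unadjusted p under 0.05, beside 9.48% of genes. The macrophage marker list, mostly CD68, was at 55.2 to 326 CPM in the STING libraries and 13.3 to 17.7 CPM in untreated MSC, with CSF1R at 0.304 CPM at most, and its part in the result was not tested. With the TLR3 agonist BID was at 19.2, 24.7 and 32.6 CPM in the same donor order, higher in 2 of 3 donors, with a log2 difference of 0.41 (SE 0.23, adjusted p = 1.0). Without the TLR3 library of donor 92, in which the interferon-stimulated genes were at the untreated level, it was 0.58 (SE 0.20, adjusted p = 1.0) and the unadjusted p was under 0.05.

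The other members ranged from −0.14 to 0.42 with the TLR3 agonist, beside a median of 0.089 for the 8 genes and 0.023 for all genes. No member was without overlap in that comparison (1.96% of genes), between the agonists (2.2%) or with CpG (2.3%). With the STING agonist the lowest was BCL2A1 at −0.28 (SE 0.39), with a median of 0.16 for the 8 genes and 0.011 for all. Between the agonists the smallest p was that of BCL2L1, at 0.15 (SE 0.19, adjusted p = 1.0) for STING against TLR3, and 0.17 (SE 0.22) without the TLR3 library of donor 92. With CpG it was that of BCL2A1, at −0.26 (SE 0.35, adjusted p = 1.0), and this value was 0.09 without the untreated library of donor 92. With the donor as a block 0 of 8 members had an unadjusted p under 0.05 with the TLR3 agonist, between the agonists or with CpG, beside 3.2%, 2.58% and 1.43% of genes.

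Several members differed between the MSC donors in the same direction in every condition. Libraries of the same donor also deviated together over all genes (median r 0.82). The share of all genes with such a fixed order of donors was not computed. BCL2 was at 1.74, 4.12 and 6.63 CPM in untreated MSC of donors 92, 99 and PC, and donor PC was highest in all 4 conditions, with 6.63 to 8.86 CPM. Donor 92 was highest in BCL2A1 in each condition, with 4.11 to 6.27 CPM, and in MCL1, with 84.6 to 106 CPM. In PMAIP1 the same donor was lowest in each condition, with 0.813 to 1.86 CPM. The libraries of donor 92 also had the lowest sums of the p53 targets, 480 to 545 CPM against 736 to 932 CPM in the other donors, and of the NF-κB targets, 280 to 303 CPM against 396 to 582 CPM, and their part in these levels was not tested.

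**Figure D3:**
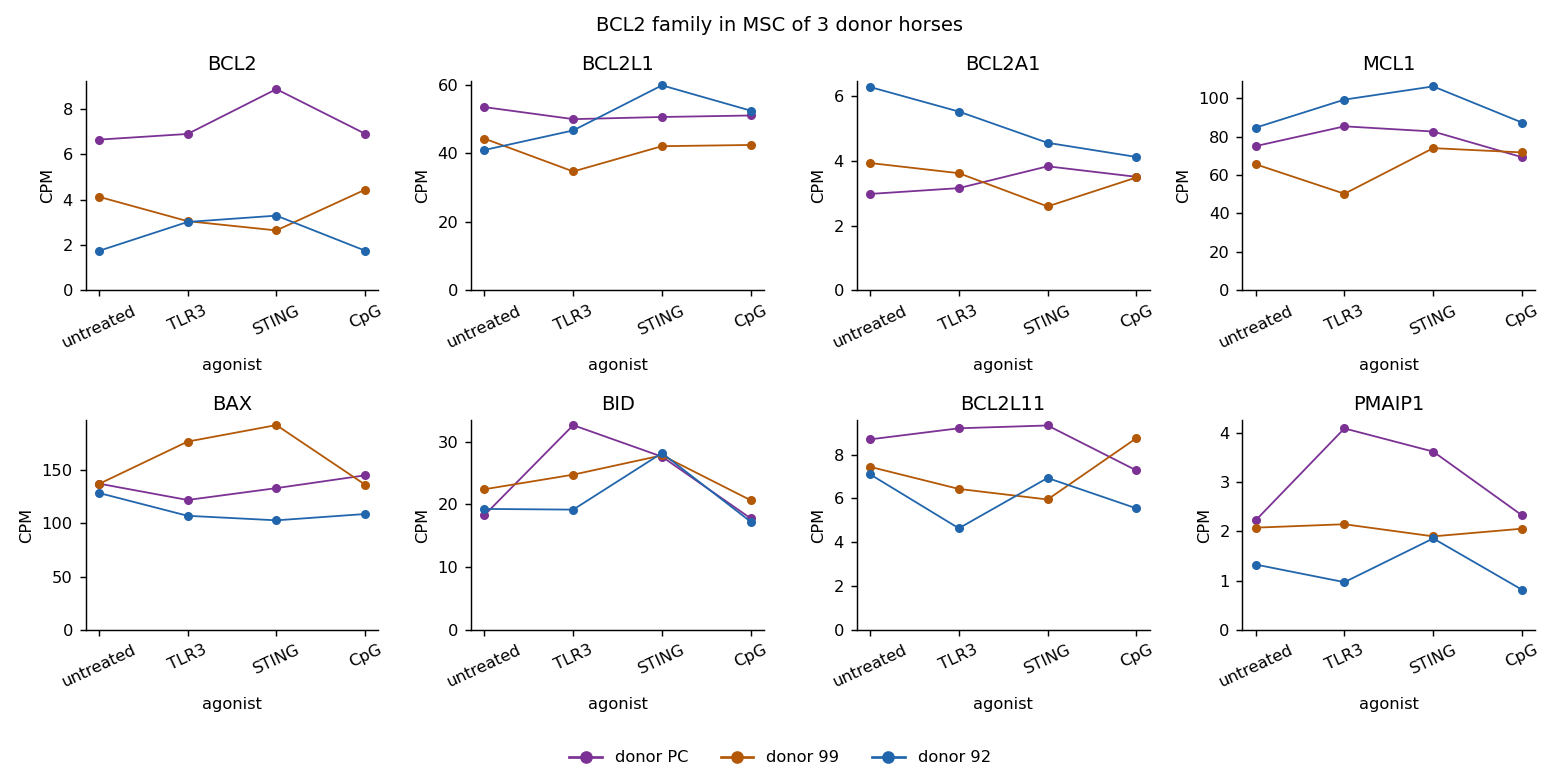
CPM of each gene in MSC by condition, with 1 line per donor horse (1 library per point, axes from 0). Donor 92 is the highest in BCL2A1 and donor PC in BCL2 in each condition, and the BID values of the 3 donors with the STING agonist lie close together at 27.6 to 28.2 CPM, above the untreated values of 18.3 to 22.4 CPM.

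In the joint cells, edgeR called none of the 8 genes and no gene at all (0% of genes) in any of the 9 comparisons between media, and DESeq2 called none of the 8 genes either. DESeq2 called 2 genes in synoviocytes with TLR-MSC-CM, 9 in macrophages with STING-MSC-CM and 31 in macrophages between the activated media, and 0 in the other comparisons. With the line as a block, edgeR called 80 genes in macrophages with STING-MSC-CM, 336 between the activated media in macrophages and 2 in chondrocytes with STING-MSC-CM, with 0 of the 8 members among them. The differences below are therefore described with the share of all genes that reached an unadjusted p under 0.05 or had groups without overlap.

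Synoviocytes given TLR-MSC-CM had higher values of 3 guards in all 3 lines, none of them past the adjusted threshold. BCL2 was at 0.790, 0.734 and 0.826 CPM with resting MSC-CM in lines AG1, ORC and PC, and at 1.17, 1.59 and 1.1975 CPM with TLR-MSC-CM, on 20 to 55 counts. Its log2 fold change was 0.74 (SE 0.34), with an adjusted p of 0.496 by edgeR. MCL1 was at 103, 96.5 and 98.8 CPM and at 109, 121 and 106 CPM, or 0.17 on the log2 scale (SE 0.067, adjusted p = 0.494). BCL2L1 was at 24.2, 22.5 and 24.1 CPM and at 24.7, 31.4 and 26.0 CPM, or 0.21 on the log2 scale (SE 0.093, adjusted p = 0.496). In these 3 genes and in BAX the groups did not overlap, which makes 4 of 8 members beside 11.2% of genes, and the unadjusted p was under 0.05 in 3 of 8 beside 10% of 14584 genes. With the line as a block it was under 0.05 in MCL1 alone, 1 of 8 beside 7.87% of genes. The single synoviocyte library with cytokines only had BCL2 at 1.20, MCL1 at 111 and BCL2L1 at 26.1 CPM, above each resting library. That with no addition had them at 1.45, 91.0 and 23.5 CPM.

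The library of line ORC with TLR-MSC-CM was the highest in BCL2, MCL1 and BCL2L1 alike. Without it the differences were 0.60, 0.12 and 0.11 in that order, without the resting library of line ORC they were 0.68, 0.12 and 0.16, and in neither case was an unadjusted p under 0.05. The median over the 8 genes was 0.17 and that over all genes 0.0007. In the same comparison the interferon-stimulated genes had a median of 0.51, with 7 of 22 at an unadjusted p under 0.05, the NF-κB targets a median of 0.03 and the p53 targets one of −0.04.

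With STING-MSC-CM, PMAIP1 had the smallest p in synoviocytes. It was at 0.600, 0.514 and 0.723 CPM with resting MSC-CM and at 0.930, 0.852 and 1.00 CPM with STING-MSC-CM, on 14 to 41 counts. The groups did not overlap, and the log2 fold change was 0.59 (SE 0.35, adjusted p = 0.652). BCL2A1 and MCL1 were also without overlap, so that 3 of 8 members were, beside 13.8% of genes, and 0 of 8 had an unadjusted p under 0.05, beside 7.6% of genes (6.07% with the block). BCL2 differed between the lines with this medium, at 0.794 and 0.896 CPM in AG1 and PC and 1.74 CPM in ORC. The median was 0.090 over the 8 genes and 0.0018 over all. Between the activated media no member was without overlap (7.26% of genes) or had an unadjusted p under 0.05 (2.02% of genes, 1.56% with the block), and MCL1 had the smallest p at −0.08 (SE 0.067, adjusted p = 1.0). Interferon-stimulated genes had medians of 0.14 with STING-MSC-CM and −0.39 between the activated media, NF-κB targets 0.02 and −0.04, and p53 targets 0.004 and −0.001.

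**Figure D4:**
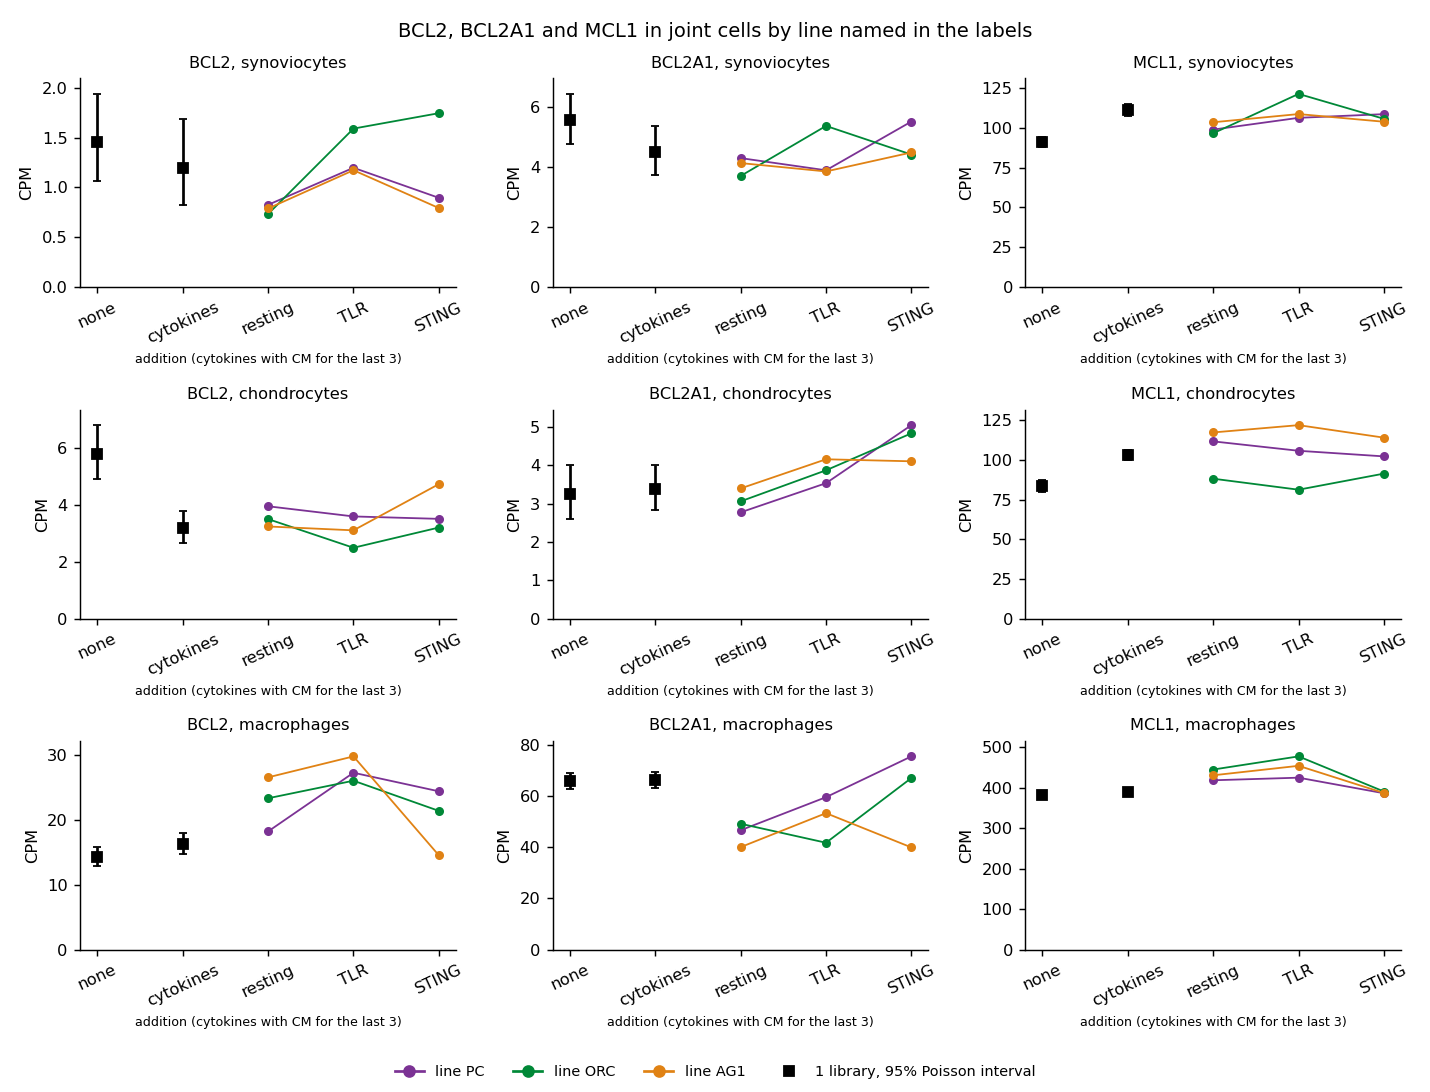
CPM of BCL2, BCL2A1 and MCL1 in synoviocytes, chondrocytes and macrophages (axes from 0). Drawn lines join the libraries of the same line, and squares are the single libraries with no addition or with cytokines only, with 95% Poisson intervals; BCL2 in synoviocytes is higher with TLR-MSC-CM than with resting MSC-CM in all 3 lines, BCL2A1 in chondrocytes is higher with both activated media, and MCL1 in macrophages is lowest with STING-MSC-CM among the 3 media.

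BCL2A1 was the member that stood out in chondrocytes. It was at 3.39, 3.06 and 2.77 CPM with resting MSC-CM in lines AG1, ORC and PC. With STING-MSC-CM it was at 4.10, 4.83 and 5.04 CPM, higher in all 3 lines and without overlap, on 77 to 172 counts in the 2 groups. The log2 fold change was 0.58 (SE 0.17), with an adjusted p of 1.0 by edgeR. It was the 1 member of 8 with an unadjusted p under 0.05, beside 0.909% of 14304 genes, and the 1 member of 8 without overlap, beside 3.8%. With the line as a block it was again the 1 member of 8 at that level, beside 3.92% of genes. Without the 3 ORC libraries it was 0.52 (SE 0.22, adjusted p = 1.0). The NF-κB targets had a median of 0.01 in this comparison, the p53 targets −0.001 and the interferon-stimulated genes 1.57. The sum of the interferon-stimulated genes was 1749 CPM in the STING library of line AG1 and 518 and 537 CPM in those of PC and ORC, and its part in the result was not tested.

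With TLR-MSC-CM, BCL2A1 in chondrocytes was at 4.15, 3.87 and 3.53 CPM, again above all resting libraries. The log2 fold change of 0.33 (SE 0.17, adjusted p = 1.0) had the smallest p of the 8 genes, with 0 of 8 at an unadjusted p under 0.05 (0.559% of genes, 2.22% with the block) and 1 of 8 without overlap (3.62%). Without the ORC libraries it was 0.31 (SE 0.22). The 2 comparisons share the resting libraries. STING-MSC-CM against TLR-MSC-CM gave BCL2A1 a log2 difference of 0.24 (SE 0.17, adjusted p = 1.0), with 0 of 8 members at an unadjusted p under 0.05 (0.811% of genes, 4.18% with the block) or without overlap (3.54%), and 0.21 (SE 0.21) without the ORC libraries. The medians over the 8 genes were 0.047, 0.036 and 0.054 in the TLR, STING and STING against TLR comparisons, and those over all genes 0.0033, 0.0025 and 0.0014. Interferon-stimulated genes had a median of −0.0006 with TLR-MSC-CM and 1.61 between the activated media, NF-κB targets 0.06 and −0.05, and p53 targets −0.02 and 0.02.

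Chondrocytes of line ORC were lowest in several members whichever way the MSC had been treated. Chondrocyte libraries of the same line deviated together over all genes (median r 0.68), and the share of genes lowest in line ORC was not computed. MCL1 was at 88.2, 81.2 and 91.4 CPM with resting, TLR- and STING-MSC-CM in line ORC, against 102 to 122 CPM in the other lines. BCL2L1 was at 31.3, 27.5 and 31.7 CPM against 34.1 to 43.9 CPM. These are the libraries with the low sums of NF-κB targets given above, and the part of that difference in MCL1 and BCL2L1 was not tested. The 2 chondrocyte libraries without medium are also named ORC. MCL1 was at 83.5 CPM in that with no addition and 103 CPM in that with cytokines only, and BCL2L1 at 29.0 and 40.2 CPM.

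In macrophages, MCL1 was at 431, 445 and 419 CPM with resting MSC-CM in lines AG1, ORC and PC and at 454, 478 and 425 CPM with TLR-MSC-CM. With STING-MSC-CM it was at 387, 391 and 387 CPM, below each of the other 6 libraries. The log2 fold change was −0.17 (SE 0.094, adjusted p = 0.907) against resting MSC-CM and −0.18 (SE 0.094, adjusted p = 0.736) against TLR-MSC-CM. BCL2 was at 26.6, 23.3 and 18.2 CPM with resting MSC-CM, 29.8, 26.0 and 27.3 CPM with TLR-MSC-CM and 14.5, 21.4 and 24.4 CPM with STING-MSC-CM. Between the activated media it did not overlap and was lower with STING-MSC-CM in all 3 lines, with a log2 difference of −0.42 (SE 0.19, adjusted p = 0.736). BCL2 and MCL1 were the 2 of 8 members without overlap in that comparison, beside 12.8% of genes, and 0 of 8 had an unadjusted p under 0.05, beside 6.6% of 15052 genes. With the line as a block, the unadjusted p was under 0.05 in 3 of 8, BCL2, MCL1 and PMAIP1, beside 16.3% of genes. PMAIP1 was at −0.34 (SE 0.31) and lower in all 3 lines, from 15.4, 7.95 and 11.2 CPM with TLR-MSC-CM to 9.12, 6.50 and 10.7 CPM with STING-MSC-CM in AG1, ORC and PC.

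BCL2A1 had the smallest p in macrophages with STING-MSC-CM. It was at 40.0, 49.1 and 46.6 CPM with resting MSC-CM in lines AG1, ORC and PC and at 39.9, 67.0 and 75.4 CPM with STING-MSC-CM, higher in lines ORC and PC and level in AG1. The log2 fold change was 0.41 (SE 0.22, adjusted p = 0.907), with 0 of 8 members at an unadjusted p under 0.05 (4.76% of genes) and MCL1 the 1 of 8 without overlap (10.1%). With the line as a block, the unadjusted p was under 0.05 in 2 of 8, BCL2A1 and MCL1, beside 13.5% of genes. The lymphocyte list was at 593, 742 and 838 CPM in the same STING libraries of AG1, ORC and PC and at 452, 604 and 682 CPM in the resting libraries, and its part in the result was not tested. With TLR-MSC-CM the smallest p was that of BCL2, at 0.23 (SE 0.19, adjusted p = 0.999) and higher in all 3 lines, with 0 of 8 at an unadjusted p under 0.05 (2.13% of genes) or without overlap (6.4%). With the block 1 of 8 was at that level, PMAIP1, beside 6.26% of genes. The medians over the 8 genes were 0.072, −0.036 and −0.049 in the TLR, STING and STING against TLR comparisons, and over all genes 0.0055, −0.0071 and −0.015. Interferon-stimulated genes had medians of −0.19, 0.05 and 0.25, NF-κB targets −0.02, −0.05 and −0.07, and p53 targets 0.05, −0.02 and 0.08, in the same order.

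In macrophages some members also differed by line, whichever way the MSC had been treated. Macrophage libraries of the same line deviated together over all genes (median r 0.44), and the share of genes that differed so was not computed. BAX was highest in line AG1 in all 3 treatments, with 150, 136 and 140 CPM for resting, TLR- and STING-MSC-CM, against 92.9 to 116 CPM in the other lines. PMAIP1 was lowest in line ORC, with 4.93, 7.95 and 6.50 CPM, against 9.12 to 15.4 CPM. BID was highest in line ORC, at 37.2, 36.8 and 36.4 CPM, against 29.4 to 34.7 CPM. The macrophage libraries without medium, also named ORC, had BAX at 147 CPM with no addition and 135 CPM with cytokines only. In the same order PMAIP1 was at 6.36 and 6.75 CPM and BID at 28.9 and 34.3 CPM. With 1 library per line and medium, these are values without a test.

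**Figure D5:**
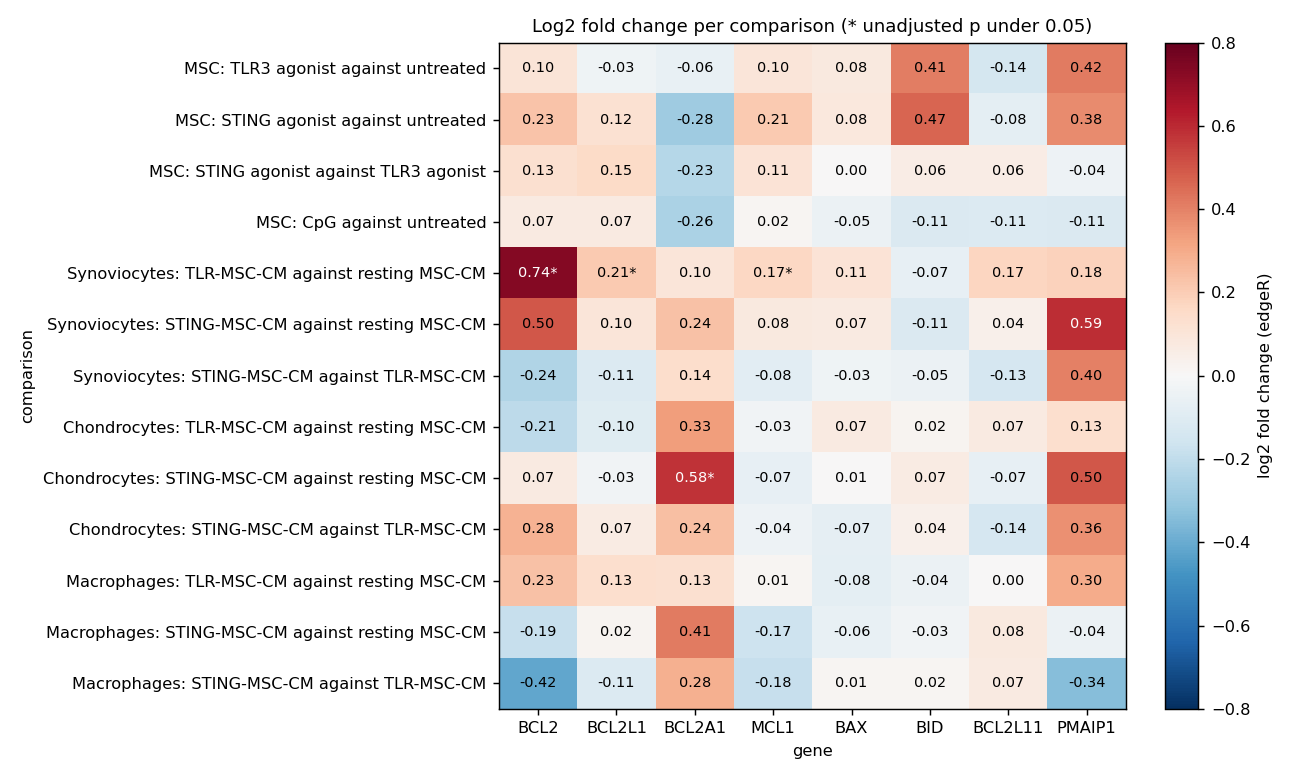
Log2 fold change (edgeR) of each gene in the 13 comparisons of treatments or media, with the value written in each cell and an asterisk at an unadjusted p under 0.05. The 4 asterisks are BCL2, BCL2L1 and MCL1 in synoviocytes with TLR-MSC-CM and BCL2A1 in chondrocytes with STING-MSC-CM; no value passed the adjusted threshold.

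Among the wider lists, no gene of the other family members, caspases, death inhibitors or membrane partners was called by edgeR in any of the 13 comparisons. At an unadjusted p under 0.05, a comparison held at most 2 of the 10 death inhibitors and at most 1 gene of each of the other lists. The share of all genes at that level ran from 0.242% between the agonists in MSC to 10% in synoviocytes with TLR-MSC-CM. That synoviocyte comparison held 2 of the 10 death inhibitors.

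A change in 1 joint cell type was set against that in another by an interaction test. In the 4 tests (TLR- and STING-MSC-CM, macrophages against stromal joint cells and chondrocytes against synoviocytes) edgeR called 0 of 8 members and 0% of 16584 genes, and DESeq2 called 0 of 8 members where it gave an adjusted p. Over all genes, DESeq2 called 0 in both tests of TLR-MSC-CM. With STING-MSC-CM it called 1 of 16577 genes in the chondrocyte test and 3 of 5008 in the macrophage test. By edgeR, the 1 member with an unadjusted p under 0.05 was BCL2 with TLR-MSC-CM. Its change was lower in chondrocytes than in synoviocytes, at −0.94 on the log2 scale (SE 0.36, adjusted p = 1.0), beside 1.72% of genes with an unadjusted p under 0.05. The other tests had 0 of 8, beside 3.71% of genes for TLR-MSC-CM in macrophages against stromal cells, and 1.74% and 4.89% for STING-MSC-CM in the chondrocyte and macrophage tests.

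For the cytokines alone there is 1 library per cell type with IL-1β and TNF-α and 1 with no addition, so no test could be made. None of the 8 genes differed by 2-fold or more in any cell type, beside 4.04% of 12927 genes in synoviocytes, 9.48% of 12865 in chondrocytes and 0.355% of 12674 in macrophages. BCL2 in chondrocytes differed most, with 5.79 CPM with no addition (95% Poisson interval 4.90 to 6.79, counting error only) and 3.19 CPM with cytokines (2.65 to 3.79), a log2 ratio of −0.77 on the CPM + 0.5 scale. BCL2L11 in the same libraries was at 22.3 CPM (20.5 to 24.2) and 15.5 CPM (14.3 to 16.8), a log2 ratio of −0.51. BCL2L1 went the other way, from 29.0 CPM (26.9 to 31.1) to 40.2 CPM (38.3 to 42.2), a log2 ratio of 0.47. The 3 chondrocyte libraries with cytokines and resting MSC-CM held BCL2 at 3.23 to 3.94 CPM, which includes no value as high as that with no addition. BCL2A1 was at 65.7 and 66.2 CPM in macrophages with no addition and with cytokines, and at 40.0 to 49.1 CPM with cytokines and resting MSC-CM. MCL1 in macrophages was at 382 and 389 CPM in those single libraries, near the 387 to 391 CPM of STING-MSC-CM and below the 419 to 445 CPM of resting MSC-CM.

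Last, the genes most alike to each member were listed as a description, by Pearson's r of log2(CPM + 1) centered within each cell type, over the 45 libraries and 12530 genes. These libraries share donors, lines and media, and no p is given. MCL1 had the highest values, with MAP2K1 (r = 0.90), FBXO33 (0.86) and LRRFIP1 (0.85). BAX was most like GNPTG (0.88), GPANK1 (0.88) and SCAND1 (0.87), and BCL2L1 most like RASSF3 (0.86), CSRNP2 (0.85) and MADD (0.82). BID was most like PML (0.84), an interferon-inducible gene, and like 2 genes listed only by identifier, ENSECAG00000032492 (0.84) and ENSECAG00000017381 (0.83). By Spearman's rho these values of BID were lower, at 0.72, 0.69 and 0.60. BCL2 was most like TSPYL5 (0.80), ZFYVE26 (0.80) and RIC3 (0.79), and PMAIP1 was like SUPT6H (0.76) and RAB11FIP1 (0.74). The lowest values were those of BCL2L11, with DCAF6, PIAS2 and BLCAP (0.70 each), and of BCL2A1, with CDR2, ENSECAG00000032230 and HIBADH (0.63 each). Among the members themselves, the highest r was that of BCL2L1 with MCL1 (0.68), which was 0.42 to 0.92 within the 4 cell types, followed by BCL2 with PMAIP1 (0.61, from −0.21 in synoviocytes to 0.83 in MSC) and BCL2 with BCL2L11 (0.57).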

How the data were processed

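Reads were trimmed by the authors (cutadapt 1.12), mapped with STAR to the horse genome EquCab3.0 and assigned to genes with HTSeq 0.11.0 and the Ensembl annotation. The deposited values are counts per protein coding gene, not normalized, and values of 1000000 or more, found in 6 genes, are written with 3 digits. Library totals ran from 23525704 to 54103873 counts. Here, counts were tested with edgeR 4.0.16 (TMM, quasi-likelihood test; R 4.3.3) on genes with at least 10 counts over the libraries of a fit, with Benjamini-Hochberg adjustment over all genes tested and a threshold of 0.05. MSC and each joint cell type were fitted apart, and the 27 joint cell libraries with MSC-CM jointly for cell types and interactions. Alternatives were DESeq2 1.42.0, other scalings and filters, a block for the donor or line, prior count 2 and leaving out each library.

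Libraries of the same MSC donor or line deviated together in all 9 pairs in MSC (median r 0.82), chondrocytes (0.68) and macrophages (0.44), but in 2 of 9 pairs in synoviocytes (0.067), so these names pair the first 3 sets. The main fits had no term for donor or line, so their SEs and p-values leave this pairing out. Only the values given with a block use it. The members, gene lists and tests were chosen with earlier results of these data known. All 8 members are named; per treatment comparison, individual values are given for members with an unadjusted p under 0.05, otherwise for the member with the smallest p, and beyond this rule, after their values were seen, for members without overlap or under 0.05 with a block (MCL1, BCL2 and PMAIP1 in macrophages) and for members that differed by donor or line; from the wider lists, up to 5 called genes with the smallest p. Genes not in the tables, such as BCL2L2, BIK and BBC3, were not analysed here. Levels are not compared between genes, since no gene lengths of EquCab3.0 were used. Results for some genes are not reported here.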

Additional observations from a re-analysis of the deposited data

Results flagged for a closer look

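In 4 cases a member was higher in all 3 lines in 1 joint cell type and lower in all 3 in another. The values are log2 fold changes by edgeR. BCL2 with TLR-MSC-CM against resting MSC-CM was at 0.74 (SE 0.34) in synoviocytes and −0.21 (SE 0.20) in chondrocytes, a difference of 0.94, and the interaction test gave an adjusted p of 1.0, with an unadjusted p under 0.05. In the same comparison BCL2 was at 0.23 (SE 0.19) in macrophages, a difference of 0.44 from chondrocytes, which was not tested as a pair. MCL1 with STING-MSC-CM, set against resting medium, was at 0.081 (SE 0.067) in synoviocytes and −0.17 (SE 0.094) in macrophages, a difference of 0.25, which was not tested as a pair. PMAIP1 with STING-MSC-CM against TLR-MSC-CM was at 0.40 (SE 0.34) in synoviocytes and −0.34 (SE 0.31) in macrophages, a difference of 0.75, which was not tested. No single change among these passed the adjusted threshold. Groups of 3 libraries were not examined for a library far from the others.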

How the results depend on the processing

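Of 237 recomputed counts of members called, 231 stayed within 1.5 times their value. In the 13 treatment comparisons and the interaction tests the main fit called no gene at all. An unchanged count of 0 there says little about the members. The 6 others came from the thresholds of the study's methods (an unadjusted p up to 0.05 and a log2 difference of 2 or more in size), which need a larger difference: for chondrocytes against synoviocytes they left 1 member with resting MSC-CM (3 before), 0 with TLR-MSC-CM (2 before) and 0 with STING-MSC-CM (3 before), and for macrophages against stromal cells 5, 4 and 4 (8 before). Leaving out each library in turn gave 3 to 3 members for chondrocytes against synoviocytes and 8 to 8 for macrophages with resting MSC-CM, and 0 to 0 in all 13 treatment comparisons. Of the log2 fold changes named, 628 kept direction and side of the threshold. With each library left out in turn, BCL2A1 with CpG ran from −0.48 to 0.0916 and reversed without the untreated library of donor 92, and MCL1 in chondrocytes against synoviocytes ran from −0.0052 to 0.18 and reversed without the resting chondrocyte library of line AG1. Neither was called before or after, and the cause was not tested. Of the recomputed likenesses 45 stayed within the 95% interval of Pearson's r and 3 did not, those of BID by Spearman's rho. With CPM scaled by TMM factors over all 45 libraries, 147 levels stayed within their spread or counting interval and 5 did not. Among the 5 was BID in MSC with the STING agonist, with a mean of 26.3 CPM and not 27.9 CPM.

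The donor or line as a replicate block called 0 members in all 13 treatment comparisons and 3 and 8 in the resting comparisons of chondrocytes and macrophages, and changed the call of PMAIP1 alone, which was then called in chondrocytes against synoviocytes with TLR-MSC-CM (−1.06) and with the STING medium (−1.07). Leaving out the ORC chondrocyte libraries was chosen after seeing the data. Levels per kilobase were planned and not run. DESeq2 gave no adjusted p for 5 of 8 members in the interaction of STING-MSC-CM between macrophages and stromal cells. At this depth PMAIP1 in chondrocytes, at 2 to 38 counts per library, limits what can be seen for that gene.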
